A study of Drosophila melanogaster with 6 samples.

Results

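The transcripts described here are those that the array names by a cDNA clone from an adult Drosophila head library, that is, by the letters GH, HL or RH followed by 5 digits. In the naming of public fly clones, these letters stand for libraries made from adult head RNA. A transcript was included if its probe was flagged well above background on all 3 arrays of WT or on all 3 arrays of the Top3b26 mutant. Of 303 head clone probes for 226 clones, 247 probes for 195 clones passed, among 23003 probes that passed in all. The 247 comprised 130 GH, 23 HL and 94 RH probes. No probe had to be left out as Fatp3, roX1 or roX2.

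The study asked how gene expression differs in heads when Topoisomerase 3β is lost. Total RNA from whole heads of adult flies was hybridized to one-colour arrays, 1 for each of 3 independent RNA preparations per group. WT flies were of strain W1118 with the wildtype gene, and Top3b26 flies carried the mutant allele TOP3B26, made by remobilizing a P-element, in the same W1118 background. Both groups therefore carry the white mutation of that strain, and the mutant group is a single allele. Each preparation pooled many frozen and sieved heads, and the labels do not give their sex. Top3beta itself was not analysed here, so the genotype labels were not checked against its level.

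A cDNA clone is a DNA copy of an RNA taken at some time from a tissue, and a head library holds copies of RNAs of the brain, the eyes, the fat body and the cuticle-forming cells of the head. Such clones served to find genes before the genome was annotated, and an array can carry a probe for a clone whose gene was not yet known. Topoisomerase 3β relaxes tangled nucleic acids by passing single strands through each other, acts on RNA as well as on DNA, and works with the Tudor protein TDRD3. A reference table of fly genes paired 46 of the 226 clones with 1 gene each and 1 clone with several, and 179 clones had no match. The 52 tested probes with a gene name belong to 43 genes.

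Levels are given as normalized log2 signal, in which each array was centred on its mean and scaled to a common spread, so a negative level is one below the mean of the array. A probe's brightness depends on its sequence, so levels are compared between arrays and never between probes. On the 6 arrays, 71.1% (Top3b26 2) to 81.2% (Top3b26 3) of spots were well above background. The median signal of head clone probes ran from 604 on Top3b26 2 to 1843 on WT 3. The median signal of the array was lowest on Top3b26 2 (279) and highest on Top3b26 3 (1604). The part of array signal in the levels was not tested. On each array, between 234 and 250 of the 303 head clone probes were well above background. WT 1, WT 2 and Top3b26 1 shared a slide, and WT 3, Top3b26 2 and Top3b26 3 shared the other. Precision is limited by there being 3 arrays in a group. In RNA from whole heads, fewer cells of a type and less RNA per cell cannot be told apart.

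As a whole, the median level of the head clone transcripts differed less between the groups than between the mutant arrays. On WT arrays 1 to 3 their median levels were 0.94, 1.19 and 1.20, against 1.1, 1.44 and 0.58 on the mutant arrays. The WT range therefore lay inside the range of the mutant arrays. The median difference of Top3b26 minus WT was -0.09 over the 247 probes, with the middle 50% between -0.37 and 0.31, beside a median of -0.15 over all 23003 tested probes. The mutant mean was the higher in 108 head clone probes (43.7%) and in 37.1% of all tested probes. The head clone median was -0.41 without Top3b26 2 and 0.16 without Top3b26 3, so its sign rests on single arrays. When arrays were scaled by the median of their probe differences, the head clone median was 0.10, beside 0.03 over all tested probes.

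In each of the 3 libraries the median levels spread less over the WT arrays than over the mutant arrays, as the plot by library shows. GH probes had medians of 1.27, 1.55 and 1.52 in WT, and of 1.18, 1.46 and 0.61 in Top3b26. RH probes had medians of 0.55, 0.97 and 0.96 in WT, and of 0.81, 1.23 and 0.43 in Top3b26. For both libraries, Top3b26 3 had the lowest value among the mutant arrays.

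**Figure D1:**
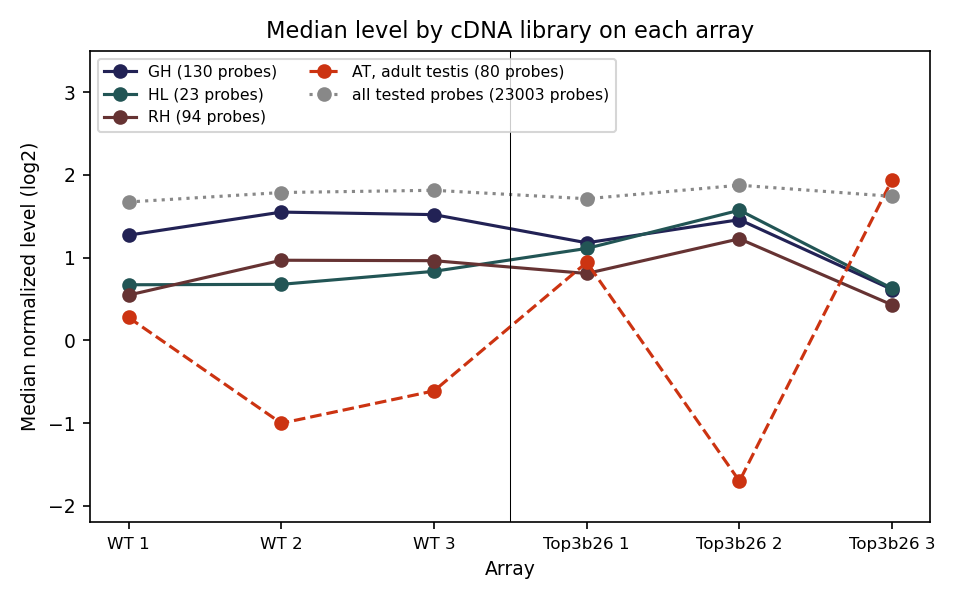
Median normalized level (log2, y axis) of the GH, HL and RH head clone probes, of 80 adult testis (AT) clone probes and of all tested probes on each of the 6 arrays (x axis), with 1 point per array. The head libraries are at 0.43 to 0.63 on Top3b26 3, and the testis clones are at 1.94 on Top3b26 3 and at -1.70 on Top3b26 2.

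HL probes, 23 probes of 16 clones, had medians of 0.67, 0.68 and 0.83 in WT and of 1.11, 1.57 and 0.63 in Top3b26. The mutant mean was the higher in 15 of the 23, with a median difference of 0.19. That median was -0.23 without Top3b26 2, with 8 of 23 higher, and 0.54 without Top3b26 3, with 21 of 23 higher. The direction for HL probes thus depended on which mutant array was used. With the scaling by median differences, all libraries had a median difference at or above 0, with 0.11 for GH, 0.38 for HL and 0.00 for RH probes. The medians of clones from an adult testis library (AT) moved in the opposite way between the same mutant arrays. They were 0.94 on Top3b26 1, -1.70 on Top3b26 2 and 1.94 on Top3b26 3, and 0.28, -1.0 and -0.61 in WT. Not all testis probes did so. Taken probe by probe, Top3b26 3 minus Top3b26 2 had a median of 0.91, and Top3b26 2 was the highest array in 24 of 80. The part of the testis clones in the head clone levels was not tested.

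Top3b26 and WT were then compared probe by probe. With limma and Benjamini-Hochberg adjustment over all 23003 tested probes, 203 probes (0.882%) had an adjusted p of 0.05 or less, of which 39 (0.170%) were higher and 164 (0.713%) lower in Top3b26. Among head clone probes, 7 of 247 (2.83%) met this threshold, 2 higher (0.810%) and 5 lower (2.02%). A probe detected on every array of only 1 group is more likely to differ by the way it was selected, and 4 of these 7 were of that kind, 3 of 12 that passed through WT only and 1 of 17 that passed through Top3b26 only. The share among all probes that passed through 1 group only was not counted, so these 4 have no background beside them. Of the 218 head clone probes well above background on all 6 arrays, 3 (1.38%) met the threshold, beside 124 (0.613%) of all 20234 such probes. The 7 probes comprised 4 GH and 3 RH probes, and 0 of 23 HL probes in the limma fit, where 2 HL probes had an unadjusted p under 0.05.

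Of the criteria in the methods of the study, the false discovery rate of 0.3 and the change of 1.5-fold were applied to the limma fit, without their z-test, ANOVA, detection p and mean signal criteria. At these thresholds 20 of 247 head clone probes (8.10%) passed, 9 higher (3.64%) and 11 lower (4.45%), beside 6.07% of all tested probes, 1.69% higher and 4.39% lower. Of those well above background on all 6 arrays, 13 of 218 (5.96%) passed, 6 higher and 7 lower, beside 5.52% of all such probes, 1.37% higher and 4.15% lower. The levels of the groups did not overlap in 38 head clone probes (15.4%), 16 higher (6.48%) and 22 lower (8.91%), beside 19.8% of all tested probes, 4.84% higher and 14.9% lower. Among those well above background on all 6 arrays this held for 31 head clone probes (14.2%), 13 higher (5.96%) and 18 lower (8.26%), beside 20.2% of all such probes, 4.52% higher and 15.7% lower. Before adjustment, 26 head clone probes (10.5%) had a limma p under 0.05, beside 11.2% of all tested probes.

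**Figure D2:**
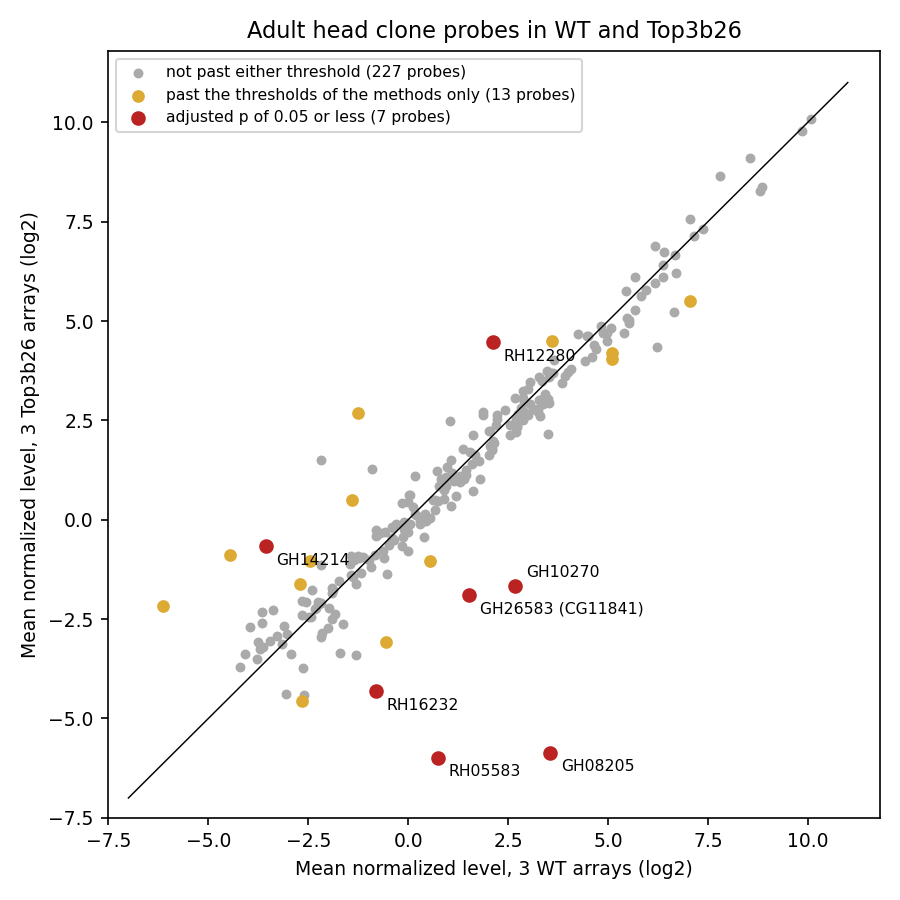
Mean normalized level (log2) of the 247 tested head clone probes over 3 WT arrays (x axis) and over 3 Top3b26 arrays (y axis), where each point is a probe and the line marks equal levels. Most points lie along the line, 13 probes pass the thresholds of the methods only, and the 7 named probes have an adjusted p of 0.05 or less.

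Of the 5 head clone probes that fell in Top3b26, a pair had no mutant array well above background. The probe of GH08205 had levels of 4.51, 3.67 and 2.49 in WT, and of -6.78, -5.56 and -5.25 in Top3b26. The groups were far apart, and the mutant values were those of a dark probe. On this scale its level was at least 204-fold lower in Top3b26, where the bound sets the mean of the WT arrays against the lowest signal called above background on the mutant arrays, and the limma difference was -9.42 ± 0.64 (SE, adjusted p = 0.00601). The bound depends on the background correction. The normexp setting adds an offset of 50 to the signals and also replaces the scaling by quantile normalization. With normexp the difference was -5.37 (limma adjusted p = 0.0155), and with quantile normalization alone it was -9.47.

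For RH05583, 1 of its 2 tested probes fell. That probe had levels of 0.32, 1.19 and 0.72 in WT and of -6.47, -5.05 and -6.44 in Top3b26, with no mutant array well above background. Its level was at least 29.0-fold lower in Top3b26 (limma adjusted p = 0.00664), a bound that normexp did not keep, with a difference of -2.68 (limma adjusted p = 0.00815). The other probe of RH05583 read -2.85, -2.83 and -1.76 in WT and -2.95, -1.44 and -2.97 in Top3b26, and these groups overlapped. Of all pairs of tested probes for 1 clone, this pair differed most, by 6.75 between their differences.

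GH26583 was the only one of the 7 clones with a gene name, CG11841, which encodes a predicted serine protease. Its levels were 1.07, 1.87 and 1.64 in WT and -1.81, -1.40 and -2.49 in Top3b26. All 6 arrays were well above background, and every mutant array lay below every WT array. The level was 10.7-fold lower in Top3b26, a difference of -3.43 ± 0.37 (limma adjusted p = 0.0218), and of -2.26 with normexp (limma adjusted p = 0.0363).

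GH10270 also had a pair of probes that differed. One read 2.64, 2.03 and 3.39 in WT and -2.29, -0.59 and -2.09 in Top3b26, all well above background, and was 20.3-fold lower (-4.34 ± 0.58, limma adjusted p = 0.0438), with -3.06 under normexp (limma adjusted p = 0.0612). The other read -1.04, -2.01 and -1.08 in WT and -1.68, -1.0 and -1.65 in Top3b26, with overlapping groups and a difference of -0.07. For this clone too, the fall was seen on 1 probe only.

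RH16232 read -1.20, -0.83 and -0.39 in WT, and -4.27, -3.50 and -5.17 in Top3b26. The groups did not overlap, and only 1 mutant array was well above background. The limma difference of -3.51 ± 0.48 (adjusted p = 0.0458) thus rests on mutant values mostly not well above background, and no fold is given. With normexp it was -1.46 (limma adjusted p = 0.083).

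The 2 head clone probes that rose were those of RH12280 and GH14214. RH12280 read 1.62, 2.40 and 2.32 in WT, and 4.45, 4.77 and 4.17 in Top3b26, 5.09-fold higher (2.35 ± 0.31, limma adjusted p = 0.0414). All arrays were well above background, and the mutant arrays all lay above WT. A second probe of RH12280 read -2.82, -0.40 and -0.54 in WT and 2.86, 2.65 and 2.52 in Top3b26. Its groups did not overlap either, and its difference of 3.93 ± 0.68 missed the threshold (limma adjusted p = 0.0836), with 2.77 under normexp. RH12280 was thus a clone in which both probes passed the thresholds of the methods in the same direction.

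GH14214 read -3.77, -3.82 and -3.10 in WT, where 2 arrays were well above background, and -1.07, -0.72 and -0.22 in Top3b26. The groups did not overlap. The mutant mean was 7.42-fold higher (2.89 ± 0.33, limma adjusted p = 0.0256), and with normexp the difference was 1.14 (limma adjusted p = 0.0864).

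**Figure D3:**
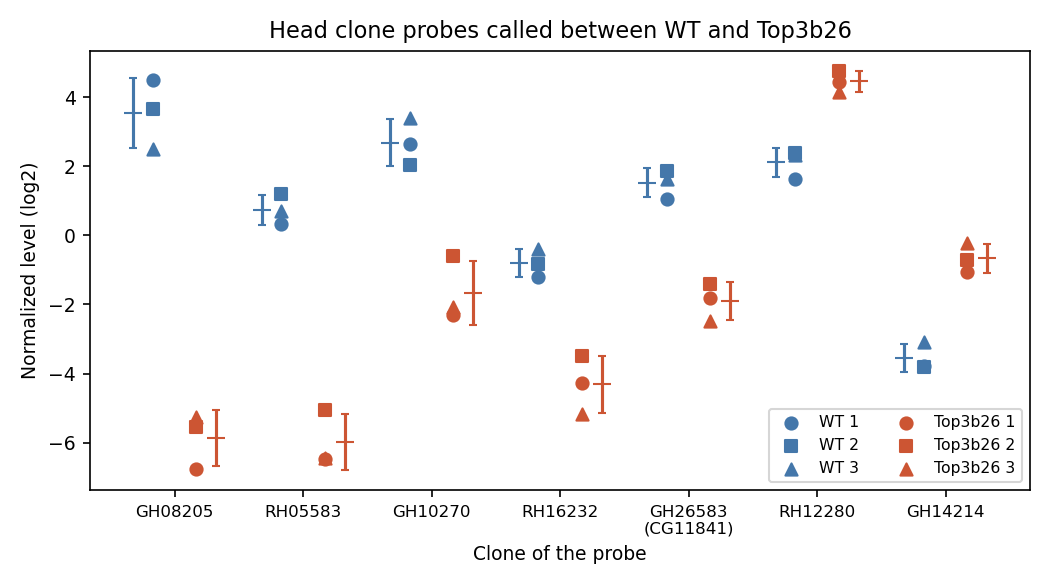
Normalized level (log2, y axis) of the 7 head clone probes with an adjusted p of 0.05 or less (x axis), where each symbol is an array and the bars beside them give the mean and SD of 3 arrays. The WT and Top3b26 arrays do not overlap in any of the 7, and 5 probes are lower and 2 higher in Top3b26.

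The slides were next taken apart, since each held both genotypes. All 7 probes had the same direction within both slides, which was fixed in advance because their groups did not overlap. The differences were -10.86 and -7.90 for GH08205, -7.22 and -6.47 for RH05583, and -4.62 and -4.73 for GH10270. They were -3.28 and -3.59 for CG11841, -3.26 and -3.95 for RH16232, 2.44 and 2.15 for RH12280, and 2.72 and 2.63 for GH14214. With the slide as a block in limma, 2 of the 7 met the threshold, GH08205 and RH05583, each with an adjusted p of 0.0438, and the adjusted p of the other 5 ranged from 0.0727 to 0.181.

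Leaving out single arrays changed the count of 7 in every case. It was 2 without WT 1, 0 without WT 2 and 1 without WT 3. In the limma fit without WT 2, 22 head clone probes had an unadjusted p under 0.05, beside 1497 of all tested probes. The head clone count was 1 without Top3b26 1, 12 without Top3b26 2 and 2 without Top3b26 3. Over all tested probes, the count of 203 became 30, 21 and 25 without WT 1, 2 and 3. It became 33, 498 and 114 without Top3b26 1, 2 and 3. The 7 differences had the same sign under all alternative settings tried, although leaving out an array cannot reverse groups that do not overlap.

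A further 13 head clone probes passed only the thresholds of the methods, and apart from those with a gene name they were chosen after their values were seen. GH13458 read 7.28, 7.07 and 6.79 in WT and 5.60, 5.84 and 5.07 in Top3b26, a difference of -1.54 (limma adjusted p = 0.100). GH02396 read 3.65, 3.58 and 3.56 in WT and 4.32, 4.45 and 4.75 in Top3b26, a difference of 0.91 (limma adjusted p = 0.154). Both were well above background on all arrays with groups that did not overlap. GH14618 had a probe that was not well above background on any WT array and was at least 3.61-fold higher in Top3b26 on this scale (limma adjusted p = 0.0675), with a difference of 0.95 under normexp (limma adjusted p = 0.458). Its other probe differed by 0.03. Besides the second probe of RH12280, the remaining 6 without a gene name were GH13568, which was well above background on only 1 WT array, GH07363 (1.91), GH14228 (1.1), RH09469 (-0.91), GH26506 (-1.60) and HL05382 (-2.51), given as log2 differences, with limma adjusted p from 0.136 to 0.204 over the 6. Under normexp the differences were 1.02 for GH07363, 0.44 for GH14228 and -1.17 for HL05382.

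Probes that the array assigns to the same clone were compared with each other. Among 37 clones with exactly 2 tested probes, the differences of both probes had the same sign in 33, and the median gap between them was 0.16. Across these 37 clones the differences of the probes had a Pearson's r of 0.405, a description over clones read on the same arrays. In 8 clones the gap was over 1. The smallest gap over all pairs of probes was in atos, which has more than 2 tested probes and so lies outside these 37 clones. A pair of its probes read -0.46, 0.15 and -0.12, and -0.19, 0.31 and -0.01, in WT, and 0.30, 1.27 and -0.30, and 0.53, 1.47 and -0.14, in Top3b26. These probes tracked each other on every array, with differences that were 0.0141 apart.

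Of the 52 probes with a gene name, 1 (1.92%), that of CG11841, passed the adjusted threshold, beside 0.882% of all tested probes, and 4 (7.69%) passed the thresholds of the methods, beside 6.07%. Of the 43 genes, 30 had all their probes within 1.5-fold between the groups. The groups did not overlap in 12 of the 52 probes (23.1%), beside 19.8% of all tested probes.

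Among signalling genes, ptc, the receptor for the Hedgehog ligand, had the lowest mutant levels relative to WT. Its probe with the smaller spread read -2.58, -2.67 and -2.73 in WT and -4.71, -4.02 and -4.93 in Top3b26. No mutant array was well above background, and the level was at least 2.74-fold lower on this scale (limma adjusted p = 0.0624). With normexp the difference was -0.49 (limma adjusted p = 0.386), under 1.5-fold. A second ptc probe was well above background on all arrays and read -1.93, -0.83 and -2.33 in WT and -3.80, -2.53 and -3.72 in Top3b26. Its groups did not overlap, and its difference was -1.65 ± 0.53 (limma adjusted p = 0.325), or -0.71 with normexp. The remaining ptc probe was not well above background on any array. The kinase regulator Mob2, the microtubule-associated protein gene Jupiter and the receptor-like gene Gfrl had overlapping groups on each of their probes.

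Of the 2 genes for chaperones and protein folding, CG14715, which encodes a prolyl isomerase of the FKBP family, read 5.30, 4.96 and 5.03 in WT and 4.13, 4.06 and 3.96 in Top3b26. The arrays of each group lay close together and apart from the other group. Its difference of -1.04 ± 0.20 passed the thresholds of the methods only (limma adjusted p = 0.111). Hsc70-1, of the Hsp70 family, read 2.55, 2.81 and 2.70 in WT and 2.19, 2.91 and 1.99 in Top3b26, with overlap.

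SP2353 was the other named gene past the thresholds of the methods only. One of its probes read -2.07, -2.61 and -2.72 in WT and -1.26, -1.10 and -0.79 in Top3b26, a difference of 1.42 ± 0.27 without overlap (limma adjusted p = 0.108), or 0.66 with normexp. The other read 1.74, 2.57 and 2.27 in WT and 2.43, 3.11 and 1.61 in Top3b26, and its groups overlapped.

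Genes of mitochondria were the largest named group, with 7 genes and 1 probe each. ND-B14.7 and ND-B17.2 encode subunits of complex I of the respiratory chain, mRpL14 and mRpL52 proteins of the mitochondrial ribosome, Fdx1 a ferredoxin, aralar1 a carrier of amino acids across the inner membrane, and Tim17a2 a part of the protein import channel. The groups overlapped in all 7, and none passed either threshold. The mutant mean was the lower in all 7, with differences from -0.80 to -0.003, as it was in 14473 of all 23003 tested probes. ND-B17.2 read 5.96, 6.39 and 6.19 in WT and 5.75, 6.58 and 5.52 in Top3b26. mRpL14 read 3.96, 4.16 and 4.09 in WT and 3.71, 4.30 and 3.36 in Top3b26. In both, Top3b26 2 was the highest array and Top3b26 3 the lowest.

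Ion channel genes are a hallmark of the nervous tissue of the head. Sh, the Shaker potassium channel and the only neuronal marker gene among the named probes, was well above background on all 6 arrays, with levels of 0.37, 1.07 and 1.00 in WT and 0.62, 2.69 and -0.26 in Top3b26. nAChRalpha6, a subunit of the nicotinic acetylcholine receptor, read 3.18, 3.20 and 3.54 in WT and 3.06, 3.36 and 2.63 in Top3b26. Trpm, a cation channel of the TRP family, read 1.91, 2.34 and 2.19 in WT and 1.70, 2.44 and 1.66 in Top3b26. The groups overlapped in all 3. The chloride channel gene pHCl-1 was not tested, with 1 array well above background.

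Among the genes of the cuticle, the groups did not overlap for Acp65Aa and obst-B. Acp65Aa, an adult cuticle protein, read -3.23, -1.50 and -1.80 in WT and -0.74, -0.29 and 5.57 in Top3b26. Top3b26 3 stood far above the other arrays, and the difference of 3.69 ± 1.75 did not pass (limma adjusted p = 0.535) and was 1.66 without that array. The chitin-binding protein gene obst-B read 1.18, 1.55 and 1.41 in WT and 1.75, 1.65 and 1.96 in Top3b26. Cpr60D, a further cuticle protein, read 1.76, 2.17 and 1.67 in WT and 2.89, 3.16 and 1.83 in Top3b26, with overlap.

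**Figure D4:**
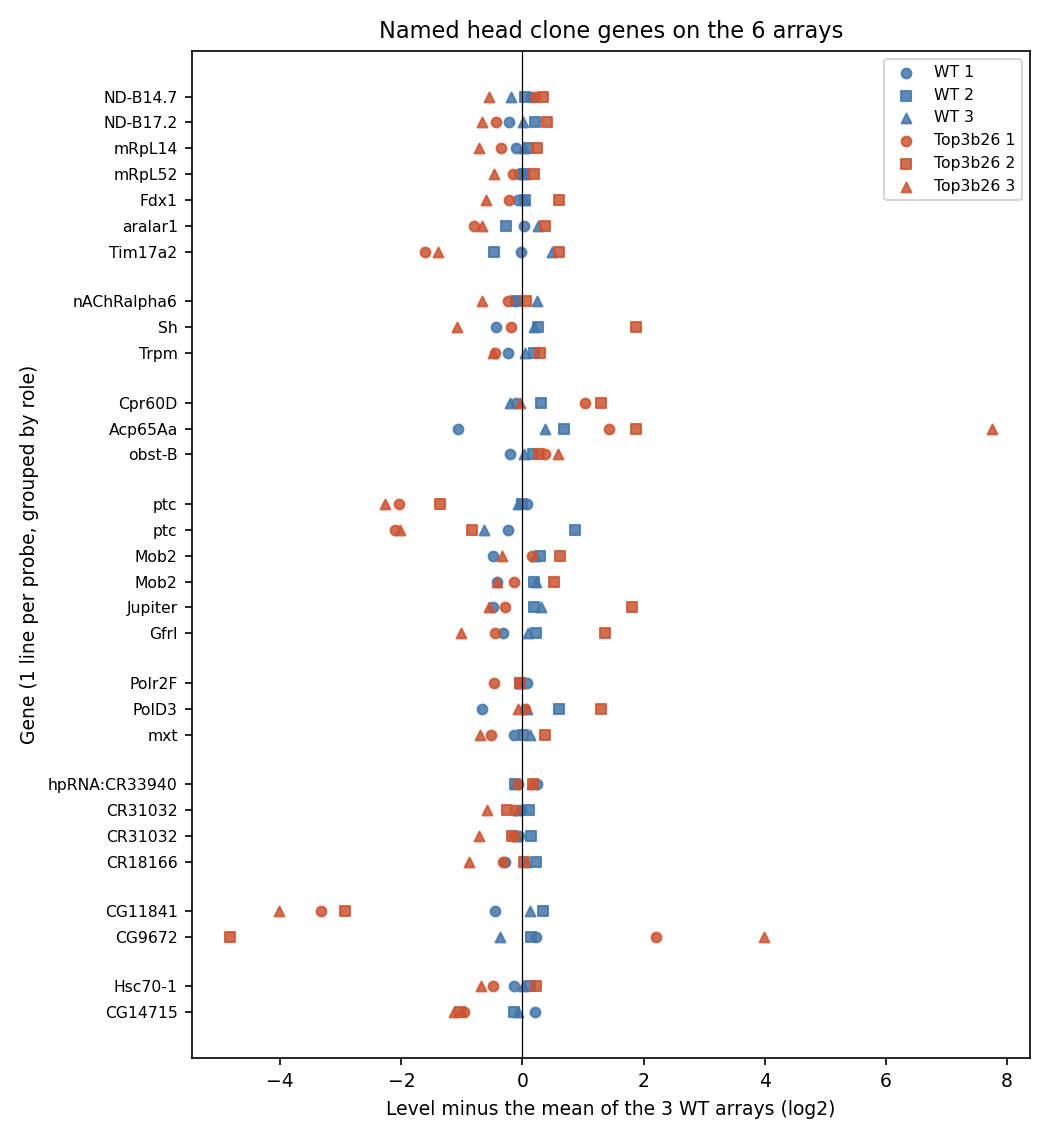
Level of 30 probes of head clone genes with a known role on each array, as the difference from the mean of the 3 WT arrays (log2, x axis), with 1 line per probe grouped by role from mitochondria at the top to chaperones and folding at the bottom (y axis). CG11841 is the named gene with an adjusted p of 0.05 or less, and Acp65Aa and CG9672 have 1 mutant array far from the others.

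Genes of RNA and DNA synthesis and of translation comprised Polr2F, a subunit of RNA polymerases, PolD3, a subunit of DNA polymerase delta, and mxt, a translation factor. Polr2F read 4.95, 4.84 and 4.84 in WT and 4.40, 4.84 and 4.83 in Top3b26, and its groups did not overlap although most arrays were nearly equal. PolD3 and mxt had overlapping groups. None of the 3 passed either threshold.

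Of the non-coding RNAs, hpRNA:CR33940, a hairpin RNA of the class that gives rise to endogenous small interfering RNAs, read 3.76, 3.39 and 3.40 in WT and 3.44, 3.69 and 3.67 in Top3b26. CR31032 had 2 probes, 1 of which read 1.24, 1.43 and 1.20 in WT and 1.15, 1.11 and 0.58 in Top3b26. The groups did not overlap on either CR31032 probe, and no probe of these RNAs, CR18166 included, passed a threshold.

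CG12483, a gene of the telomeric end of chromosome arm 3L, read -0.05, 0.33 and 0.89 in WT and -0.34, -0.07 and -0.91 in Top3b26. The groups did not overlap but WT 1 and Top3b26 2 were nearly equal, and the difference of -0.83 ± 0.35 did not pass (limma adjusted p = 0.472). CG7720 read 0.74, 1.46 and 1.02 in WT and 0.20, 0.69 and 0.13 in Top3b26 on its tested probe, with a difference of -0.73 ± 0.29 (limma adjusted p = 0.432). CHKov1 read 7.93, 7.74 and 7.72 in WT and 8.63, 9.37 and 7.93 in Top3b26. These genes did not pass either threshold.

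Of the other named genes, those with overlapping groups and no probe past a threshold were CG33178, CG33293, CG34417, CG42784, CG4757, CG5104, Cdep, MESK2, atos, f-cup, hwt and vsg. In hwt, the group means were 1.5-fold or more apart on both probes, with differences of -0.89 and -0.78, and Top3b26 3 was the lowest array on each. CG33293 read 2.39, -0.06 and 0.78 in WT and 3.13, -0.34 and 4.69 in Top3b26.

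The head clone transcripts varied more between mutant arrays than between WT arrays. With 1 array per preparation, spread between preparations and spread between arrays cannot be told apart. The SD over the 3 Top3b26 arrays was larger than that over the 3 WT arrays in 219 of 247 probes (88.7%), beside 88.8% of all tested probes. The median SD was 0.27 in WT and 0.67 in Top3b26 for head clones, and 0.23 and 0.54 for all tested probes. Of the 6 arrays, Top3b26 2 was the highest in 157 head clone probes (63.6%) and in 44.8% of all tested probes. Top3b26 3 was the lowest in 155 (62.8%) and in 58.1%. With the scaling by median differences, these shares were 44.5% and 29.1% for head clones, and 29.4% and 22.4% for all tested probes. Before scaling, such shares were not particular to head clones. They were 63.8% and 78.3% for ovary (GM) clone probes, and 57.3% and 66.7% for embryo (LD, RE) clone probes. They were 54.7% and 39.1% for cultured cell (SD), 50% and 40.9% for larva and pupa (LP), and 30% and 17.5% for testis clone probes. With scaling, ovary clone probes had 46.4% and 26.1%, and the other lists were below head clones on both shares. These were 34.9% and 22.9% for embryo and 34.4% and 15.6% for cultured cell clone probes. Larva and pupa clone probes had 36.4% and 9.09%, and testis clone probes 18.75% and 5%. Among the 23 HL probes, Top3b26 2 was the highest in 21. These shares follow from how 2 single arrays differ and were not tested.

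Subtracting Top3b26 2 from Top3b26 3 gave a median of -1.18 over the head clones, beside -0.74 for all tested probes. The median was -1.09 for ovary, -0.93 for embryo, -0.96 for larva and pupa, -0.72 for cultured cell and 0.91 for testis clone probes. A few head clone probes went strongly the other way. Of the head clone probes, 9 (3.64%) were over 3 higher (log2) on Top3b26 3 than on Top3b26 2, beside 8.61% of all tested probes and 33 of 80 testis clone probes (41.3%), and 7 were over 3 lower.

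The largest SD over the mutant arrays was that of GH11417, which read 4.94, -5.29 and 6.85 in Top3b26 and 3.71, 3.89 and 2.93 in WT. GH01508 read 7.22, -2.27 and 8.07 in Top3b26 and 6.82, 6.57 and 5.28 in WT. In both, Top3b26 2 lay far below all other arrays, and the other mutant arrays lay above WT. CG9672, a predicted serine protease gene, read 2.19, -4.83 and 3.98 in Top3b26 and 0.22, 0.14 and -0.39 in WT. Its WT arrays were close together, and the mutant array with the lowest value was not well above background. For such probes the mean of the mutant arrays describes none of them.

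**Figure D5:**
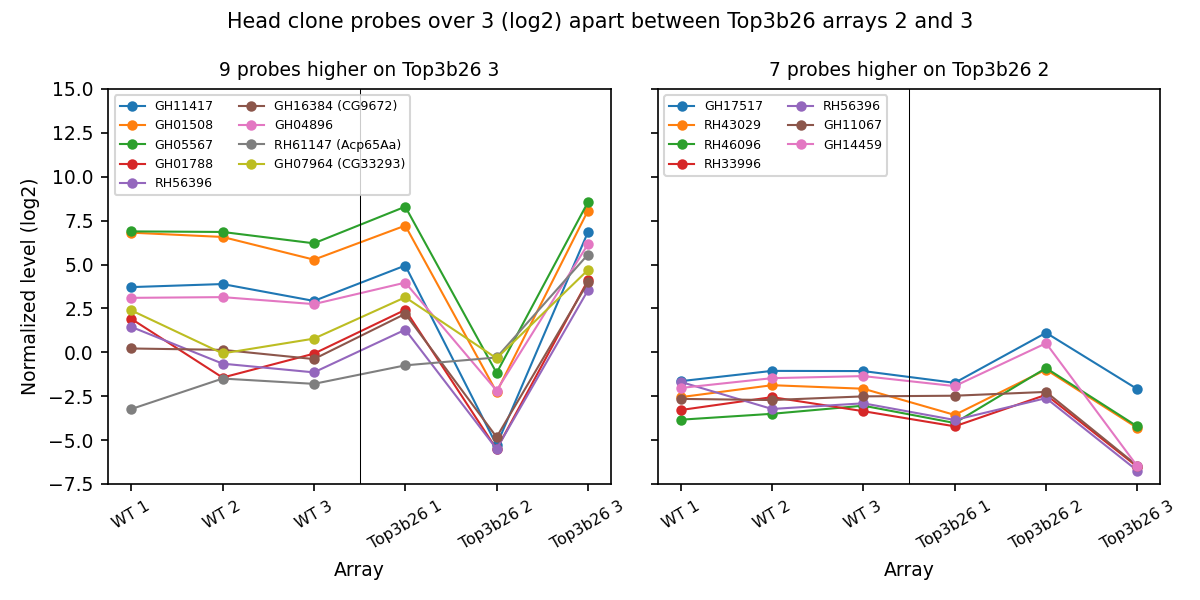
Normalized level (log2, y axis) on each of the 6 arrays (x axis) of the head clone probes that were over 3 apart between Top3b26 2 and Top3b26 3, with 1 line per probe. In the left panel, 9 probes are higher on Top3b26 3, and GH11417 reaches -5.29 on Top3b26 2 and 6.85 on Top3b26 3. In the right panel, 7 probes are higher on Top3b26 2.

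Over the WT arrays, the largest SDs were those of RH55216 and of 1 probe of RH23912. RH55216 read -6.07, 1.51 and 1.86 in WT and 1.51, 1.42 and 0.87 in Top3b26, so that WT 1 alone stood apart. RH23912 read -6.05, -2.65 and -2.24 in WT and -2.83, -1.73 and -3.22 in Top3b26, again with WT 1 as the lowest array.

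HL08087, RH25742 and GH01616 had bright probes on all arrays. HL08087 read 10.63, 10.47 and 9.16 in WT and 10.30, 10.71 and 9.25 in Top3b26 on 1 of its probes. RH25742 read 9.22, 8.34 and 8.08 in WT and 9.36, 9.73 and 8.19 in Top3b26, and GH01616 read 8.74, 9.14 and 8.69 in WT and 8.16, 9.22 and 7.72 in Top3b26. The groups overlapped in each, and none of these probes was saturated.

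Finally, 56 of the 303 head clone probes were not tested, 39 of them not well above background on any array and 17 on some arrays. Those just outside the rule were 6 probes with 2 arrays of a group well above background. One of them, for CG32260, read -4.10, -3.33 and -3.40 in WT and -5.26, -4.59 and -4.78 in Top3b26. Just inside were 6 probes with all 3 arrays of a group and none of the other, of which GH26355 read -3.99, -3.53 and -3.82 in WT and -3.74, -2.66 and -4.15 in Top3b26. The named genes among the untested probes were CG32260, pHCl-1 and CR9337, besides further probes of ptc and CG7720.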

How the data were processed

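Head RNA of 3 WT and 3 Top3b26 preparations was hybridized to Agilent 4x44K Drosophila arrays. Per the file headers, the deposited intensity values are Cy3 signals that Feature Extraction 11.5.1.1 had background-subtracted within each array, from 3 micron scans. The authors also deposited score values, z-scores of log signal, which differed from recomputed ones by at most 0.00502. Here log2 signals were z-transformed over the 43602 non-control spots of each array and multiplied by their mean SD (3.89). Outlier spots (610 over all arrays) were left out and spots of a probe averaged, giving 32162 probes.

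Probes well above background on all 3 arrays of a group were tested with limma 3.58.1 (lmFit, eBayes) in R 4.3.3, with genotype as the only term and p-values adjusted by Benjamini-Hochberg over all 23003. The preparations were independent, and p-values measure the spread between them, each read on 1 array. The fit assumes the same spread in both groups, although the mutant SD was the larger in 88.8% of all tested probes. An "at least" fold divides the bright group's mean by a floor for the dim group, the array-averaged larger value of the probe itself and of the dimmest probe flagged above background. The code was tested on simulated data. Clones were named where a reference gene table (Release 6) lists the clone as a synonym, with no coordinates taken from it, since the array design uses an older build.

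The members, gene lists and roles were chosen with earlier results of these data known. The naming rule took every head clone with a gene symbol, the largest increases and decreases with both groups measured, clones with bright or variable probes, and the most and least discordant probes of a clone. Other clones were chosen after their values were seen. Of the marker lists for tissues and cell types, only Sh had a named head clone probe, and CG12483 alone of the 3L list; the others were not analysed here. Alternatives changed the scaling, the background correction, the filter, the blocks, the variance model, the test and the arrays. The background correction was normexp on median signal (offset 50), followed by quantile normalization in place of the z-transformation.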

Additional observations from a re-analysis of the deposited data

How the results depend on the processing

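The 7 called head clone probes kept their direction in all 122 values under the alternatives and lost the call in 57. Many of these directions were fixed in advance. Changes of the filter, the variance model or the test, and the replicate block, left each difference as it was. Leaving out 1 array cannot reverse groups that do not overlap. The other 24 probes named with a difference of 1.5-fold or more, or past the thresholds of the methods, also kept their direction. Of their 429 values, 28 met the threshold. Both counts of calls include the plain 2-group test without adjustment, where the unadjusted p was held to 0.05. Each of the 7 called probes kept its call there. All 203 calls and the 7 head clone calls became 498 and 13 with scaling by median differences (184 of the 498 and 6 of the 13 higher), 123 and 3 without the detection filter, and 44 and 2 when slide was a block. The plain 2-group test that stands for the z-test of the methods gave 87 and 0 after adjustment, and 2839 and 25 without. Under normexp the differences of GH08205, RH05583, GH14618 and ptc were smaller than their "at least" folds. The normexp setting includes quantile normalization, so calls lost under it cannot be credited to the background correction alone. With quantile normalization alone, GH10270, RH16232 and CG11841 lost their calls (limma adjusted p = 0.101, 0.118 and 0.0739). All calls and head clone calls were 355 and 9 with a 75th percentile shift, and 130 and 5 with normexp. They were 137 and 4 with quantile normalization, and 197 and 4 with only probes well above background on all arrays. The 20 head clone probes past the thresholds of the methods became 34 with scaling by median differences and 10 with the slide as a block. In the plain test they were 21 after adjustment, and 46 when the unadjusted p stood in for the false discovery rate. Leaving out 1 array gave 21 (without WT 2) to 498 (without Top3b26 2) calls in all, 0 to 12 head clone calls, where 22 had an unadjusted p under 0.05 in limma without WT 2, 8 (without WT 3) to 101 (without Top3b26 2) past the thresholds of the methods, and head clone medians from -0.41 to 0.16. With 1 array left out, a group of 2 is assumed to vary like the other. The causes were not tested, apart from the fewer samples when an array was left out.

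The labels number the replicates 1 to 3 in both groups. Deviations of same-numbered arrays correlated at 0.56, 0.59 and -0.37, and the arrays were not taken as pairs. With the replicate block, 13 probes in all and 1 head clone probe were called. The medians of GH, HL and RH probes without Top3b26 2 or 3 and with scaling by median differences were computed after seeing the data. A dim probe near the background has no order among its lowest values.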

Other observations

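Some untested head clones were above background on a single mutant array, on both of their probes. GH19628 was well above background on Top3b26 3 only, where its probes read -3.52 and -3.00, and not on any other array. RH09463 was well above background on Top3b26 2 only, where its probes read -2.16 and -1.56. In RH56396, a pair of tested probes went opposite ways between these arrays, with 1 probe 9.04 higher on Top3b26 3 than on Top3b26 2 and the other lower by 4.14. GH05567 read 8.30, -1.18 and 8.55 in Top3b26, and 6.89, 6.86 and 6.21 in WT. GH14459 had a probe that read -1.93, 0.52 and -6.49 in Top3b26, and -2.03, -1.47 and -1.36 in WT.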
